A study of Homo sapiens with 9 samples.

Results

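The mitosis genes examined here are a set of 58 genes, named for MKI67 and AURKB, whose products carry cells through mitosis. They were found by gene symbol in the deposited tables. Of the 58 members, 57 had a row and were tested among 21048 genes that reached an FPKM of 0.1 in 3 or more libraries, and PRC1 was not analysed here. FPKM is the number of sequenced fragments of a gene scaled to its length and to the depth of its library. RNA was measured in A549, a human lung cancer cell line, transfected for 48 h with control siRNA (siCtrl in the labels, a scrambled sequence in the methods), siCyclin K#1 or siCyclin K#2, with 3 libraries for each group and 9 in all. Cyclin K, the protein both siRNAs are directed at, is a partner of CDK12 and CDK13, kinases that act on RNA polymerase II during transcription. The labels do not say whether the 3 libraries of a group came from separate cultures, so the p-values measure the spread between these libraries, which may be technical. The study is about Cyclin K and radioresistance in lung cancer, and the sequencing served to find genes that change when Cyclin K is lost.

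CCNK, the gene of Cyclin K, stood at 7.02 ± 0.107 FPKM in the scrambled libraries, 0.809 ± 0.0857 under siCyclin K#1 and 0.844 ± 0.0661 under siCyclin K#2 (each mean ± SD, n = 3). Its log2 fold changes were -2.97 and -2.92 against scrambled, and the difference between the siRNAs did not pass the test (-0.06, standard error 0.10, adjusted p = 0.73 from limma). Libraries held an estimated 31333749 to 33767961 reads, and the 32 mitosis genes whose values resolved into whole reads had 202 to 48718 reads per library. The summed FPKM of 5 epithelial markers was 132 to 193, carried by KRT8 and KRT18, while KRT19 and EPCAM were at or near 0. The 8 markers of immune, endothelial and fibroblast cells that had a row summed to 0.700 to 1.15 FPKM. Exons of 23 members overlap those of another gene, 19 of them on the other strand only, and whether reads were counted by strand is not given in the sources used here, so that reads of the partner genes cannot be told apart from theirs. These are FOXM1, CCNA2, CDC25C, WEE1, BORA, PLK1, BUB1B, MAD2L1, CENPA, NUF2, SPC24, CDCA3, KIF2C, KIF4A, KIFC1, NUSAP1, HMMR, ANLN, KIF20A, KIF23, SMC4, NCAPD2 and NCAPG.

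Mitosis is driven by CDK1 bound to B-type cyclins. Aurora and Polo-like kinases build the spindle, the kinetochores tie chromosomes to spindle microtubules, and the spindle assembly checkpoint holds back CDC20, the activator of the anaphase promoting complex (APC/C), until every chromosome is attached. APC/C then has securin and cyclin B destroyed, so that separase can part the sister chromatids and the cell can divide. Most of these genes are transcribed late in the cell cycle, through MYBL2 and FOXM1 bound with the MuvB complex at a promoter element called the cell cycle genes homology region (CHR), often near CCAAT boxes bound by NF-Y. In bulk RNA, fewer cells in mitosis and less mRNA in each cell cannot be told apart.

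The promoters of 6 members are printed because they stand for the different courses described below: CDC20 and CCNB1 fell with both siRNAs, CENPF and CCNB2 rose with both, and MKI67 and PLK1 went in opposite directions. Each line gives the 150 bases before the transcription start in RefSeq's GRCh38.p14 annotation, read 5′ to 3′ on the strand of the gene. The positions are chr1:43358831-43358980 (plus strand), chr1:214603045-214603194 (plus), chr10:128126424-128126573 (minus), chr5:69167000-69167149 (plus), chr15:59104996-59105145 (plus) and chr16:23678739-23678888 (plus). Capitals mark the CHR letters (TTTGAA or TTTAAA) and CCAAT, on either strand, so that ATTGG is CCAAT on the other strand.
CDC20: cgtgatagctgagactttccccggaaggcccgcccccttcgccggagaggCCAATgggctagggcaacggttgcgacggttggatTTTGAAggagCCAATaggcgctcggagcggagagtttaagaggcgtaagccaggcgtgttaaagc
CENPF: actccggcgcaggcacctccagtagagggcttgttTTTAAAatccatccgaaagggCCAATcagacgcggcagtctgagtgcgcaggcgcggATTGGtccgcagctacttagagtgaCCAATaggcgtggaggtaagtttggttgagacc
MKI67: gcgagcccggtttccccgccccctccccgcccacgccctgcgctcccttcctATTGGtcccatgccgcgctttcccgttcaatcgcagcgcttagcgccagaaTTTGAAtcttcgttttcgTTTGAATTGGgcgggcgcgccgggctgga
CCNB1: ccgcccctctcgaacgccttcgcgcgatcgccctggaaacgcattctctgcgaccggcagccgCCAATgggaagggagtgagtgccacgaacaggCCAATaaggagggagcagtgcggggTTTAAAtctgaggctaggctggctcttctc
CCNB2: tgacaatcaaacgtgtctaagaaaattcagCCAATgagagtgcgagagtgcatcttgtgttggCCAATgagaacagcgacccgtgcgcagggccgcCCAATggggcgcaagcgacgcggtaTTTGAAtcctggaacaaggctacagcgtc
PLK1: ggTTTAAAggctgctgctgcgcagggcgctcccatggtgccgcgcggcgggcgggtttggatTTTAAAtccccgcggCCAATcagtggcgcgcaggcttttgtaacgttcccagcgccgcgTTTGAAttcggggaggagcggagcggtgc

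All 6 hold at least 1 CHR match and at least 1 CCAAT, whichever way their mRNA moved. CCNB1 and CCNB2, the cyclins that went opposite ways, have a CHR match that starts 30 and 29 bases before the start, with CCAAT boxes 55 and 54 bases before it. In MKI67 a CHR match and a CCAAT box on the other strand share letters in the run TTTGAATTGG. Over the whole set, RefSeq's table of promoters, each 300 bases long with 250 before the start and 50 after it, held 63 promoters of 49 members. TPX2, WEE1, UBE2C, AURKA, BIRC5, BUB3, FOXM1 and TTK had no entry. A CHR match was present in 74.6% of the members' promoters and in 24.0% of all 35116 promoters. CCAAT was present in 68.3% against 34.6%, a CHR match and CCAAT together in 55.6% against 9.27%, the E2F letters TTCCCGC or TTGGCGC in 19.0% against 9.23%, and the forkhead letters TAAACA in 6.35% against 12.3%. Both strands were searched, and TTTAAA reads the same on both. These matches are letters and not measured binding.

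**Figure D1:**
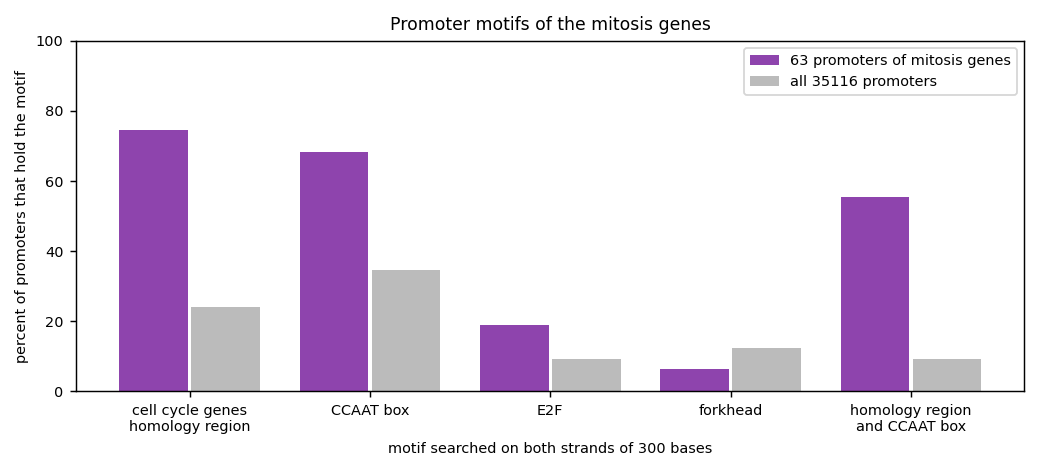
Percent of promoters (vertical axis) that hold each motif (horizontal axis), for the 63 promoters of mitosis genes and for all 35116 promoters of the RefSeq table. The CHR letters are in 74.6% of the members' promoters and 24.0% of all, and the forkhead letters are the only ones less frequent among the members, at 6.35% and 12.3%.

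Members with and without these letters were also set side by side. The 43 members with a CHR match had a median log2 difference between siCyclin K#1 and siCyclin K#2 of -0.34. The 6 members without one, AURKB, BUB1, CCNA2, MYBL2, SPC24 and TACC3, had -0.44. Against scrambled the medians with and without a CHR match were -0.11 and -0.04 for siCyclin K#1, and 0.15 and 0.31 for siCyclin K#2. For CCAAT the medians between the siRNAs were -0.35 in the 38 members with it and -0.27 in the 11 without. Against scrambled they were -0.20 and -0.10 for siCyclin K#1, and 0.14 and 0.32 for siCyclin K#2. These are descriptions with no test.

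More mitosis genes fell than rose with siCyclin K#1, and more rose than fell with siCyclin K#2. With siCyclin K#1, 29 of 57 members were lower and 12 higher than with scrambled siRNA at an adjusted p under 0.05 (limma on log2(FPKM + 0.1), Benjamini-Hochberg adjustment over the 21048 genes). By the same rule 18.1% of all genes were lower and 26.8% were higher, and among the 11243 genes whose FPKM averaged 1 or more, which are closer to the members in level, 27.8% were lower and 36.5% higher. The median log2 fold change was -0.20 over the members and 0.10 over all genes. With siCyclin K#2, 28 members were higher and 9 lower, where 19.8% of all genes were higher and 15.2% lower (31.1% and 22.4% of those that averaged 1 or more), and the median was 0.17 over the members and 0.01 over all genes. Both comparisons use the same scrambled libraries.

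The siRNAs were then tested against each other. Here 40 members were lower under siCyclin K#1 than under siCyclin K#2, 1 was higher (CDCA8) and 16 passed in neither direction, where 12.3% of all genes were lower and 17.1% higher. The median difference was -0.35 over the members, with a range of -0.83 to 0.23, and 0.08 over all genes. Library by library, the members' median log2 distance from the scrambled mean was -0.19, -0.20 and -0.20 in the siCyclin K#1 libraries, 0.23, 0.18 and 0.18 in the siCyclin K#2 libraries and -0.02 to 0.01 in the scrambled libraries. The 3 libraries of each group lay close together, and the groups were apart. Among the 11243 genes that averaged an FPKM of 1 or more 20.8% were lower and 23.7% higher in this comparison.

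**Figure D2:**
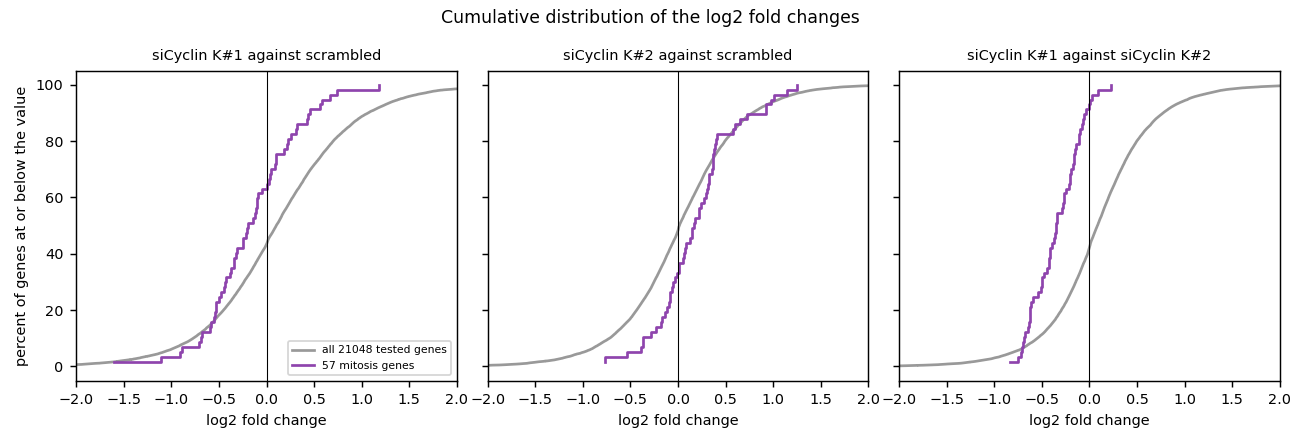
Cumulative percent of genes (vertical axis) at or below each log2 fold change (horizontal axis, drawn from -2 to 2) for the 57 mitosis genes and for all 21048 tested genes, in the 3 comparisons. The members' median lies at -0.20, 0.17 and -0.35, and that of all genes at 0.10, 0.01 and 0.08.

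Most changes were small. With a fold change over 1.5 added, 9 members were lower and 3 higher with siCyclin K#1 (9.80% and 17.8% of all genes), 2 were lower and 9 higher with siCyclin K#2 (7.00% and 10.6%), and 13 were lower and 0 higher under siCyclin K#1 than under siCyclin K#2 (4.80% and 8.35%). By the rule in the study's methods, over 3-fold with a raw p under 0.01, only CDC20 passed, with siCyclin K#1, where 4.67% of all genes did. With siCyclin K#2 and between the siRNAs 0 members passed that rule, where 1.94% and 1.53% of all genes did. The median of all genes with siCyclin K#1 moved from 0.10 to -0.0039 when the libraries were rescaled by their median ratio. Counted from the median of all genes, 14 members were lower and 2 higher by over 1.5-fold with siCyclin K#1, and under the rescaling itself 34 members were lower and 7 higher, against 29 and 12 as deposited. The count from the median still used the adjusted p of the test against no change. Shares of all genes were not counted for either, so these counts are not read as a stronger change of the members.

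**Figure D3:**
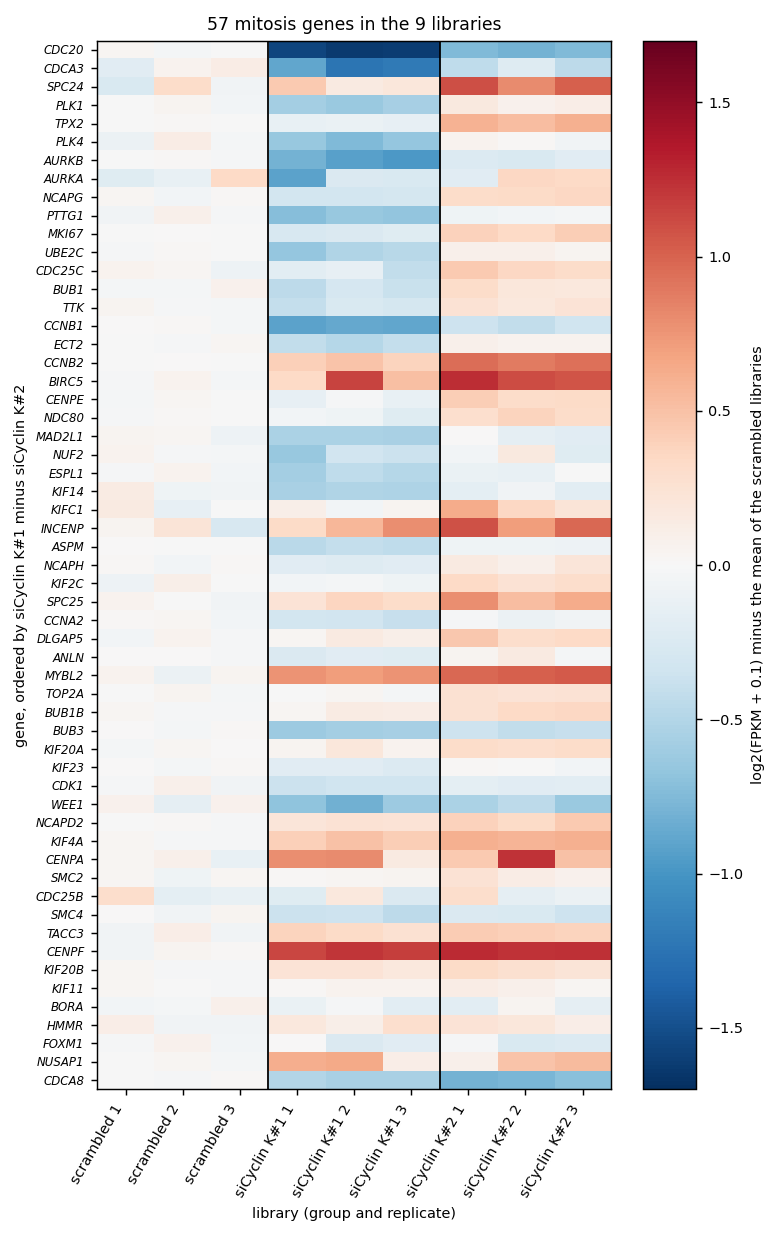
Each cell gives log2(FPKM + 0.1) of a mitosis gene (57, vertical axis) in 1 of the 9 libraries (horizontal axis) minus the mean of the scrambled libraries, with blue for lower and red for higher. Genes are ordered by the difference between siCyclin K#1 and siCyclin K#2, from CDC20 at the top (-0.83) to CDCA8 at the bottom (0.23).

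Levels with scrambled siRNA spanned a wide range. FPKM is scaled to gene length, so levels of different genes are set side by side here, but only roughly. For members whose values resolved into whole reads, that length was that of all annotated exons. Which transcripts were made was not measured. TOP2A, the topoisomerase that untangles sister DNA, was the most abundant member at 194 ± 5.35 (SD, n = 3) FPKM, and BORA, the cofactor with which Aurora A activates PLK1, the least at 2.25 ± 0.129 (SD, n = 3). Of the 57 members, 12 had a mean of at least 50 FPKM, 34 lay between 10 and 50, and 11 were under 10, with a median of 24.7 FPKM.

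**Figure D4:**
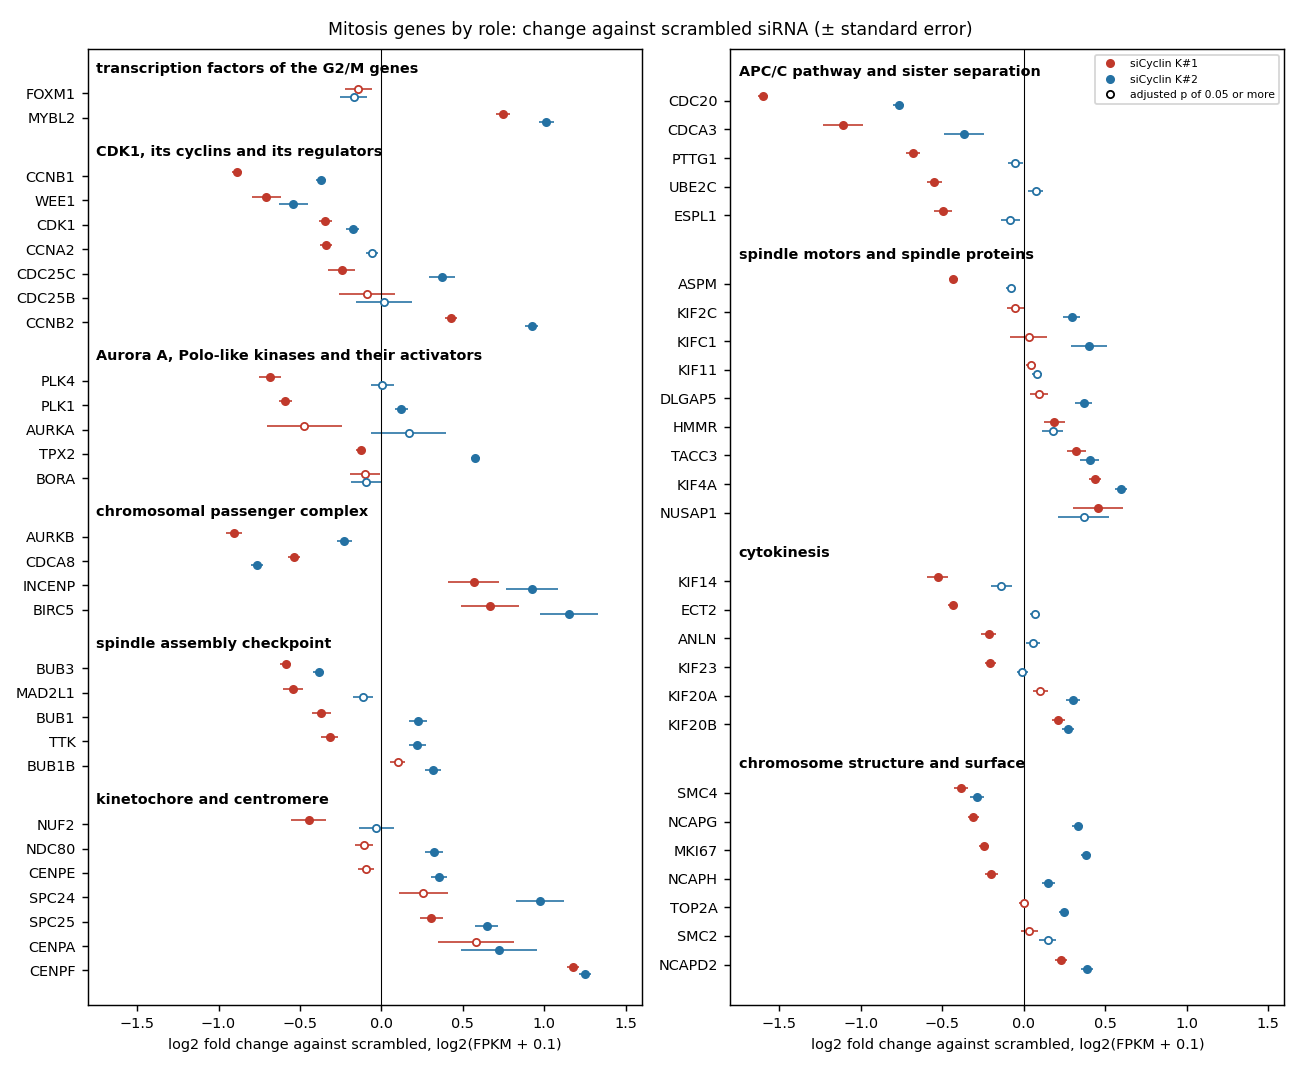
Log2 fold change against scrambled siRNA on the log2(FPKM + 0.1) scale (horizontal axis) of the 57 mitosis genes, grouped by role (vertical axis), for siCyclin K#1 in red and siCyclin K#2 in blue. Bars are standard errors and open circles have an adjusted p of 0.05 or more. The siCyclin K#1 points run from -1.60 (CDC20) to 1.18 (CENPF) and the siCyclin K#2 points from -0.77 (CDC20) to 1.25 (CENPF).

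The transcription factors of the late cell cycle genes did not move together. MYBL2, the MYB protein that activates these genes with MuvB, had 39.4, 35.3 and 39.2 FPKM with scrambled siRNA, 64.2, 62.4 and 64.5 under siCyclin K#1 and 74.9, 76.8 and 78.1 under siCyclin K#2. It rose with both siRNAs, by 0.75 and 1.01 on the log2 scale (standard error 0.04, adjusted p = 2.2e-06 and 8.5e-07), and was lower under siCyclin K#1 than under siCyclin K#2 (-0.27, adjusted p = 0.0022). FOXM1, the forkhead factor recruited to the same promoters, had 20.2, 21.6 and 19.8 FPKM with scrambled siRNA, 20.6, 17.4 and 18.0 under siCyclin K#1 and 20.3, 17.2 and 17.4 under siCyclin K#2, and its groups overlapped (log2 fold changes -0.14 and -0.17, adjusted p = 0.21 and 0.15). Under median-ratio rescaling FOXM1 was lower with siCyclin K#1 (-0.26, adjusted p = 0.028), and without siCyclin K#2 replicate 1 it was lower with siCyclin K#2 (-0.25, adjusted p = 0.044).

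Counts by role, here and below, cover few genes each. Of the genes that averaged an FPKM of 1 or more, 27.8% were lower and 36.5% higher with siCyclin K#1. For siCyclin K#2 these shares were 22.4% and 31.1%, and between the siRNAs 20.8% and 23.7%. CDK1, its cyclins and its regulators fell for the most part with siCyclin K#1, where 5 of 7 members were lower and 1 higher. With siCyclin K#2, 3 were lower and 2 higher. The B-type cyclins, both partners of CDK1, parted: CCNB1 had 99.1, 101 and 97.2 FPKM with scrambled siRNA, 52.7, 54.4 and 53.7 under siCyclin K#1 and 77.6, 74.1 and 78.0 under siCyclin K#2, and CCNB2 had 23.4, 23.6 and 23.4 FPKM with scrambled siRNA, 31.1, 33.0 and 30.5 under siCyclin K#1 and 45.2, 43.4 and 44.8 under siCyclin K#2. Every siCyclin K library was below every scrambled library in CCNB1 and above every scrambled library in CCNB2. The log2 fold changes of CCNB1 were -0.88 (standard error 0.03, adjusted p = 1.0e-07) and -0.37 (adjusted p = 2.6e-05), and those of CCNB2 were 0.42 (standard error 0.04, adjusted p = 2.1e-05) and 0.92 (adjusted p = 5.5e-07). Both cyclins were lower under siCyclin K#1 than under siCyclin K#2, by -0.51 and -0.50 (adjusted p = 6.6e-06 and 2.2e-05), so that the siRNAs differed by a like amount in genes that went opposite ways from scrambled.

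WEE1, the kinase that keeps CDK1 inhibited, had 6.92, 5.89 and 6.91 FPKM with scrambled siRNA, 4.03, 3.67 and 4.25 under siCyclin K#1 and 4.47, 4.79 and 4.20 under siCyclin K#2, and fell with both siRNAs (-0.71 and -0.54, adjusted p = 1.9e-04 and 0.0014). Its row also carries RF01210, an RNA family entry within the gene. CDC25C, a phosphatase that removes that inhibition, had 6.25, 6.11 and 5.64 FPKM with scrambled siRNA, 5.28, 5.45 and 4.47 under siCyclin K#1 and 8.17, 7.69 and 7.50 under siCyclin K#2, lower with siCyclin K#1 (-0.24, adjusted p = 0.040) and higher with siCyclin K#2 (0.37, adjusted p = 0.0075). The fall of CDC25C was lost in 8 of 19 alternatives, among them the fits without scrambled replicate 1 or 2, siCyclin K#1 replicate 3 or siCyclin K#2 replicate 2 or 3 (adjusted p = 0.12, 0.10, 0.11, 0.057 and 0.052). CDK1 itself changed by -0.35 and -0.18 (adjusted p = 1.1e-04 and 0.0078), and CCNA2, the cyclin of S phase and early mitosis, by -0.34 and -0.06 (adjusted p = 8.6e-05 and 0.27, the latter -0.11 and 0.047 after median-ratio rescaling). CDC25B, another such phosphatase, had overlapping groups, with 30.0, 21.8 and 22.3 FPKM in the scrambled libraries.

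Of the 5 members that are Aurora A, Polo-like kinases or their activators, 3 were lower under siCyclin K#1 than under siCyclin K#2 and 2 (AURKA and BORA) passed in neither direction. PLK4, the kinase that starts centriole duplication, had 7.85, 9.23 and 8.27 FPKM with scrambled siRNA, 5.36, 4.96 and 5.31 under siCyclin K#1 and 8.77, 8.56 and 8.08 under siCyclin K#2. It was low in the siCyclin K#1 libraries alone: the log2 value was -0.68 (standard error 0.07, adjusted p = 5.1e-05) against scrambled and -0.69 (adjusted p = 1.2e-04) against siCyclin K#2, while siCyclin K#2 gave 0.01 (adjusted p = 0.97). PLK1, which acts on centrosomes, kinetochores and cytokinesis, had 29.3, 30.6 and 28.7 FPKM with scrambled siRNA, 19.8, 19.1 and 19.95 under siCyclin K#1 and 33.2, 31.1 and 32.1 under siCyclin K#2. It fell with siCyclin K#1 (-0.59, standard error 0.04, adjusted p = 4.4e-06) and was slightly higher with siCyclin K#2 (0.12, adjusted p = 0.044), a rise that was lost in 12 of 20 alternatives, such as median-ratio rescaling (0.07, adjusted p = 0.21) and leaving out scrambled replicate 1 or 3, siCyclin K#1 replicate 1 or 3, or siCyclin K#2 replicate 1 or 3 (adjusted p from 0.056 to 0.13). The difference between the siRNAs in PLK1 was -0.71 (adjusted p = 4.9e-06).

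TPX2, which activates Aurora A on spindle microtubules, had 95.7, 97.1 and 95.2 FPKM with scrambled siRNA, 88.2, 88.5 and 87.1 under siCyclin K#1 and 145, 139 and 146 under siCyclin K#2. The siCyclin K#2 libraries were far above all others and the siCyclin K#1 libraries a little below scrambled, with log2 fold changes of -0.13 (adjusted p = 0.0052, 0.85 under quantile normalization) and 0.57 (adjusted p = 1.2e-06) and a difference of -0.70 (adjusted p = 7.9e-07). AURKA, the kinase of the centrosome and spindle, varied within groups. It had 47.8, 50.4 and 70.0 FPKM with scrambled siRNA, 29.2, 46.5 and 46.1 under siCyclin K#1 and 48.4, 70.5 and 70.0 under siCyclin K#2, with replicate 1 the lowest library of each group, and passed no test (adjusted p = 0.13, 0.63 and 0.069 in the 3 comparisons). Without siCyclin K#2 replicate 1 it was lower under siCyclin K#1 than under siCyclin K#2 (-0.82, adjusted p = 0.037), as it was after median-ratio rescaling (-0.72, adjusted p = 0.047). With the replicate number as a block, AURKA was lower with siCyclin K#1 against both scrambled (-0.47, adjusted p = 0.016) and siCyclin K#2 (-0.64, adjusted p = 0.0079). BORA had 2.16, 2.19 and 2.40 FPKM with scrambled siRNA, 2.07, 2.22 and 1.97 under siCyclin K#1 and 1.97, 2.31 and 2.02 under siCyclin K#2, and all groups overlapped, though after quantile normalization it was lower with siCyclin K#1 (-0.29, adjusted p = 0.024).

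**Figure D5:**
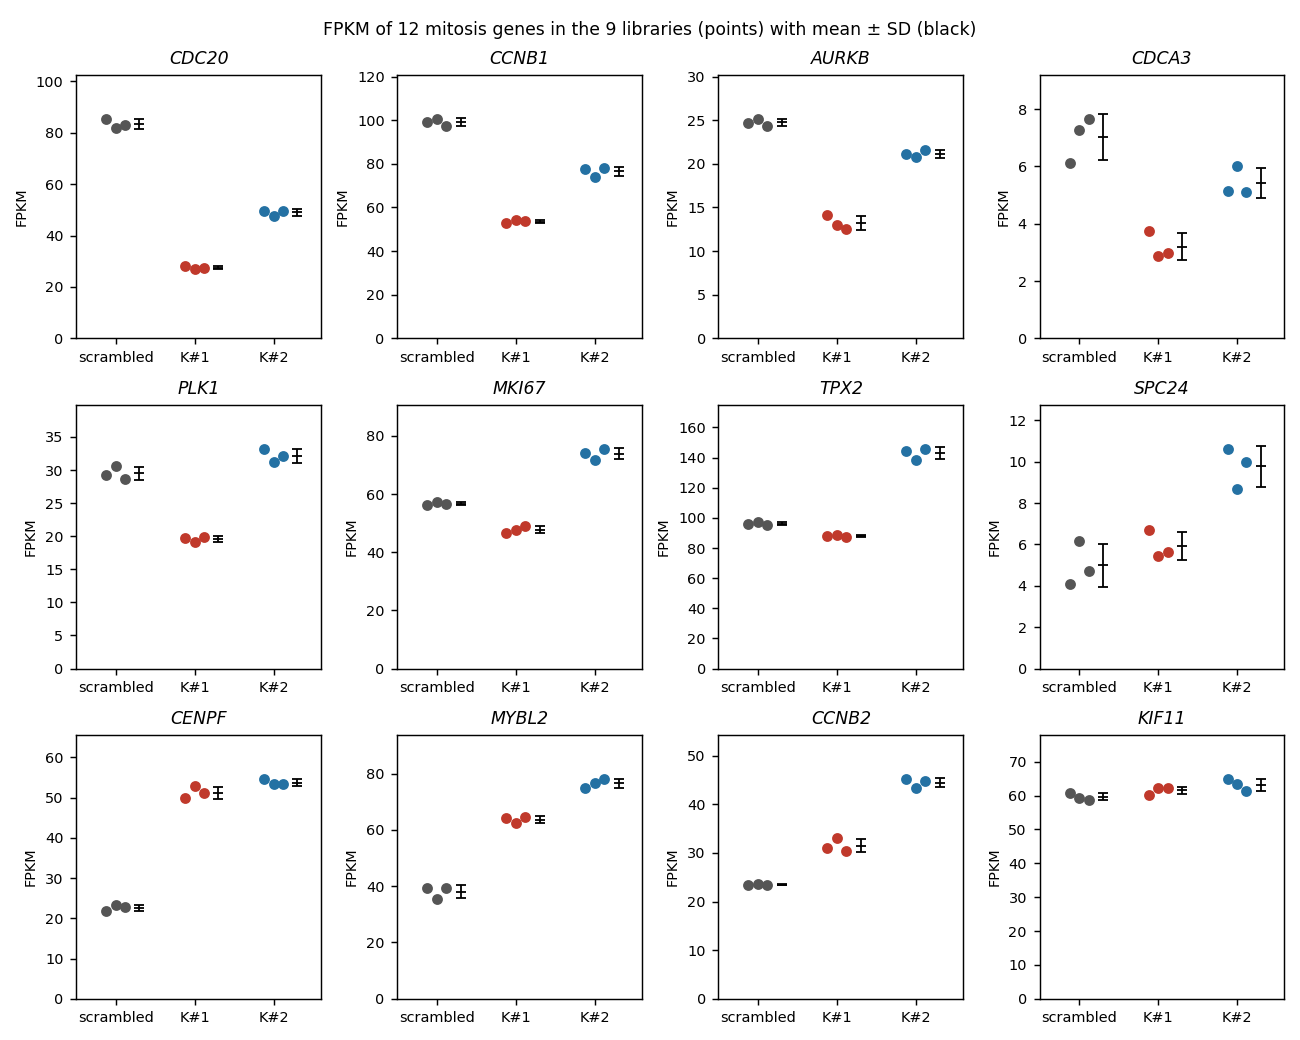
FPKM (vertical axis) of 12 mitosis genes in the scrambled, siCyclin K#1 and siCyclin K#2 libraries (horizontal axis), with the 3 libraries of a group as points and the mean ± SD in black. CDC20 falls from a mean of 83.5 to 27.5 and 49.0, CENPF rises from 22.6 to 51.3 and 53.8, and KIF11 stays between 58.7 and 64.9 in every library.

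The chromosomal passenger complex is made of 4 proteins, and their mRNAs split in pairs with both siRNAs. AURKB (ENSG00000178999, chromosome 17 from 8204733 to 8210600 of GRCh38), its kinase, which corrects faulty attachments and drives cytokinesis, had 24.7, 25.2 and 24.4 FPKM with scrambled siRNA, 14.1, 13.0 and 12.5 under siCyclin K#1 and 21.1, 20.7 and 21.6 under siCyclin K#2. That is 53.3% and 85.3% of the scrambled mean, or -0.90 on the log2 scale (standard error 0.05, adjusted p = 9.7e-07) and -0.23 (adjusted p = 0.0053), and -0.68 between the siRNAs (adjusted p = 1.5e-05). CDCA8, which encodes borealin, a part of the module that targets the complex to centromeres, had 31.9, 31.6 and 32.5 FPKM with scrambled siRNA, 22.7, 21.8 and 21.8 under siCyclin K#1 and 18.3, 18.6 and 19.5 under siCyclin K#2. It fell with both and was the 1 member that was lower under siCyclin K#2 than under siCyclin K#1 (difference 0.23, standard error 0.04, adjusted p = 0.0018).

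The other two subunits were higher. BIRC5, which encodes survivin, had 6.05, 6.40 and 6.03 FPKM with scrambled siRNA, 7.81, 13.8 and 8.85 under siCyclin K#1 and 14.9, 13.4 and 13.1 under siCyclin K#2, with log2 fold changes of 0.67 and 1.15 (standard error 0.18, adjusted p = 0.014 and 0.0011). Every siCyclin K library was above the scrambled libraries, and siCyclin K#1 replicate 2 stood above the others of its group. Without that library BIRC5 was lower under siCyclin K#1 than under siCyclin K#2 (-0.72, adjusted p = 5.3e-04), which it was not with it (-0.48, adjusted p = 0.078, or -0.55 and 0.044 after median-ratio rescaling). INCENP, the scaffold that holds the kinase, rose by 0.56 and 0.92 (standard error 0.16, adjusted p = 0.017 and 0.0018), and its rise with siCyclin K#1 did not pass without scrambled replicate 3 (adjusted p = 0.055) or siCyclin K#1 replicate 3 (adjusted p = 0.059).

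The spindle assembly checkpoint genes were lower under siCyclin K#1 than under siCyclin K#2 in 5 of 5 members, and so were 40 of all 57 mitosis genes. BUB3, which brings BUB1 and BUBR1 to kinetochores, had 33.6, 32.8 and 34.0 FPKM with scrambled siRNA, 21.8, 22.4 and 22.6 under siCyclin K#1 and 26.3, 25.0 and 25.5 under siCyclin K#2, and fell with both siRNAs (-0.59 and -0.39, standard error 0.03, adjusted p = 1.6e-06 and 3.4e-05). BUB1B, which encodes BUBR1, had 12.5, 12.0 and 12.0 FPKM with scrambled siRNA, 12.5, 13.5 and 13.2 under siCyclin K#1 and 14.5, 15.5 and 15.6 under siCyclin K#2. It was higher with siCyclin K#2 (0.32, adjusted p = 7.7e-04), while the siCyclin K#1 group overlapped scrambled (0.10, adjusted p = 0.12), and its row is shared with BUB1B-PAK6 and PAK6. The kinases BUB1 and TTK went opposite ways, with -0.37 and -0.32 for siCyclin K#1 (adjusted p = 7.6e-04 and 9.3e-04) and 0.22 and 0.22 for siCyclin K#2 (adjusted p = 0.015 and 0.0095). The rises did not pass under quantile normalization (0.17 and 0.14, adjusted p = 0.050 and 0.080), and that of BUB1 also not without scrambled replicate 1 or 2 or siCyclin K#2 replicate 1 (adjusted p = 0.052, 0.052 and 0.051). MAD2L1, the checkpoint protein that binds CDC20, fell with siCyclin K#1 (-0.54, adjusted p = 8.7e-05), with -0.11 for siCyclin K#2 (adjusted p = 0.18, or -0.17 and 0.033 without siCyclin K#2 replicate 1).

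The kinetochore and centromere genes rose with siCyclin K#2 in 6 of 7 members, with a median log2 fold change of 0.65. With siCyclin K#1 the group had 2 higher, 1 lower and 4 not called. CENPF, a large protein that joins the outer kinetochore, (ENSG00000117724, chromosome 1 from 214603195 to 214664588 of GRCh38), had 21.7, 23.3 and 22.8 FPKM with scrambled siRNA, 49.9, 52.8 and 51.1 under siCyclin K#1 and 54.7, 53.3 and 53.3 under siCyclin K#2. This was the largest rise among the members with both siRNAs. Its log2 fold changes were 1.18 and 1.25 (standard error 0.04, adjusted p = 6.3e-08 and 1.5e-07), and the difference between the siRNAs did not pass (-0.07, standard error 0.04, adjusted p = 0.20), except after median-ratio rescaling (-0.14, adjusted p = 0.013).

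The 4 subunits of the NDC80 complex, the main microtubule binder of the kinetochore, had unequal changes. NUF2 had 19.1, 18.1 and 18.0 FPKM with scrambled siRNA, 11.8, 14.7 and 14.2 under siCyclin K#1 and 17.8, 20.6 and 15.9 under siCyclin K#2, and fell with siCyclin K#1 (-0.45, adjusted p = 0.0081), with -0.03 for siCyclin K#2 (adjusted p = 0.85) and a difference of -0.41 (adjusted p = 0.018). That difference did not pass without siCyclin K#1 replicate 1 or siCyclin K#2 replicate 2 (-0.32 for each, adjusted p = 0.050 and 0.053). SPC24 had 4.10, 6.15 and 4.71 FPKM with scrambled siRNA, 6.70, 5.45 and 5.61 under siCyclin K#1 and 10.6, 8.70 and 10.0 under siCyclin K#2, clearly high in the siCyclin K#2 libraries (0.97, standard error 0.15, adjusted p = 0.0010) and overlapping scrambled with siCyclin K#1 (0.26, adjusted p = 0.20, or 0.42 and 0.028 without scrambled replicate 2). SPC25 rose with both (0.31 and 0.65, adjusted p = 0.0070 and 1.3e-04), though not with siCyclin K#1 after median-ratio rescaling (0.18, adjusted p = 0.070). NDC80 rose with siCyclin K#2 (0.32, adjusted p = 0.0016), with -0.11 for siCyclin K#1 (adjusted p = 0.15), where it was lower after median-ratio rescaling (-0.23, adjusted p = 0.0060) and quantile normalization (-0.21, adjusted p = 0.011).

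Of the remaining kinetochore genes, CENPE, a motor that moves chromosomes to the spindle equator, rose with siCyclin K#2 (0.35, adjusted p = 5.5e-04), with -0.10 for siCyclin K#1 (adjusted p = 0.15), and was likewise lower with siCyclin K#1 after median-ratio rescaling (-0.22, adjusted p = 0.0045) and quantile normalization (-0.16, adjusted p = 0.033). CENPA, the histone H3 variant that marks centromeres, whose exons overlap SLC35F6 on the same strand, had 4.72, 4.89 and 4.20 FPKM with scrambled siRNA, 8.01, 8.07 and 5.12 under siCyclin K#1 and 6.30, 10.9 and 6.51 under siCyclin K#2. The siCyclin K libraries were all above the scrambled ones but spread widely, and the adjusted p of 0.043 with siCyclin K#2 did not hold after median-ratio rescaling or quantile normalization (adjusted p = 0.051 and 0.072), without any 1 of the scrambled libraries (adjusted p = 0.086, 0.076 and 0.12) or without siCyclin K#2 replicate 2 (0.47, adjusted p = 0.10), while that with siCyclin K#1 (0.077) passed without siCyclin K#1 replicate 3 (0.79, adjusted p = 0.021) or siCyclin K#2 replicate 2 (adjusted p = 0.026).

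The genes of the APC/C pathway and of sister separation fell together with siCyclin K#1, in 5 of 5 members, with a median log2 fold change of -0.68. With siCyclin K#2, 2 fell and 3 did not pass, and all 5 were lower under siCyclin K#1 than under siCyclin K#2, as were 40 of all 57 members. CDC20 (ENSG00000117399, chromosome 1 from 43358955 to 43363203 of GRCh38), the activator that the checkpoint restrains, had the largest fall of all members with siCyclin K#1, and with siCyclin K#2 it fell about as far as CDCA8 (-0.77 and -0.76, standard errors 0.03 and 0.04). It had 85.6, 81.8 and 83.0 FPKM with scrambled siRNA, 28.1, 27.0 and 27.2 under siCyclin K#1 and 49.7, 47.6 and 49.8 under siCyclin K#2, and the groups were apart at every library. The level left was 32.9% and 58.7% of the scrambled mean, the log2 fold changes were -1.60 (standard error 0.03, adjusted p = 1.2e-08) and -0.77 (adjusted p = 7.3e-07), and the difference between the siRNAs was -0.83 (adjusted p = 7.9e-07). The pseudogene CDC20P1 was listed at 0.967, 1.15 and 1.23 FPKM with scrambled siRNA, and reads of such a copy may be shared with CDC20.

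CDCA3, a trigger of mitotic entry that helps degrade WEE1, had 6.11, 7.29 and 7.67 FPKM with scrambled siRNA, 3.73, 2.88 and 3.00 under siCyclin K#1 and 5.15, 6.02 and 5.11 under siCyclin K#2, with log2 fold changes of -1.11 (standard error 0.12, adjusted p = 9.2e-05) and -0.36 (adjusted p = 0.049). The second of these passed narrowly and was lost in 9 alternatives, such as the fit without scrambled replicate 2 (-0.33, adjusted p = 0.13), and likewise without scrambled replicate 3, siCyclin K#1 replicate 2 or 3 or siCyclin K#2 replicate 1 or 3 (adjusted p from 0.051 to 0.15). UBE2C, the ubiquitin-conjugating enzyme of APC/C, had 71.3, 73.2 and 71.4 FPKM with scrambled siRNA, 45.7, 50.2 and 51.7 under siCyclin K#1 and 76.5, 76.6 and 74.0 under siCyclin K#2. It fell with siCyclin K#1 (-0.55, adjusted p = 1.4e-05) while the siCyclin K#2 value was 0.07 (adjusted p = 0.26), and the difference passed (-0.62, adjusted p = 1.9e-05). PTTG1, which encodes securin, had 56.4, 62.8 and 58.2 FPKM with scrambled siRNA, 35.6, 37.7 and 37.2 under siCyclin K#1 and 56.1, 57.3 and 57.8 under siCyclin K#2, with log2 fold changes of -0.68 and -0.05 and a difference of -0.63 (adjusted p = 3.1e-06, 0.42 and 1.5e-05). ESPL1, which encodes separase, had 9.36, 9.92 and 9.23 FPKM with scrambled siRNA, 6.33, 7.04 and 6.78 under siCyclin K#1 and 8.79, 8.71 and 9.41 under siCyclin K#2, again low in the siCyclin K#1 libraries (-0.50, adjusted p = 1.2e-04) and overlapping scrambled with siCyclin K#2.

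Of 9 spindle motors and spindle proteins, 4 were higher and 1 lower with siCyclin K#1, and 5 were higher and 0 lower with siCyclin K#2. The shares among genes that averaged an FPKM of 1 or more were 36.5% higher and 27.8% lower, and 31.1% higher and 22.4% lower. ASPM, a protein of the spindle poles, was the member that fell: it had 29.3, 29.2 and 29.1 FPKM with scrambled siRNA, 21.2, 22.1 and 21.7 under siCyclin K#1 and 27.7, 27.7 and 27.4 under siCyclin K#2, with -0.43 for siCyclin K#1 (standard error 0.03, adjusted p = 4.8e-06) and -0.08 for siCyclin K#2 (adjusted p = 0.066, and 0.010 after median-ratio rescaling). KIF4A, a chromosome-bound motor, had 28.9, 27.7 and 27.7 FPKM with scrambled siRNA, 37.1, 39.8 and 37.5 under siCyclin K#1 and 42.8, 41.9 and 42.7 under siCyclin K#2, and rose with both (0.44 and 0.59, adjusted p = 1.4e-05 and 4.5e-06). NUSAP1, a microtubule-binding protein, had 40.6, 41.9 and 40.1 FPKM with scrambled siRNA, 62.8, 63.8 and 44.1 under siCyclin K#1 and 43.5, 57.0 and 59.4 under siCyclin K#2. Its libraries spread widely: siCyclin K#1 replicate 3 and siCyclin K#2 replicate 1 lay near scrambled and the rest of both groups well above, and its call with siCyclin K#1 (0.46, adjusted p = 0.041) was lost after median-ratio rescaling (0.33, adjusted p = 0.11) and without any 1 of the scrambled libraries, siCyclin K#1 replicate 1 or 2, or siCyclin K#2 replicate 2 (adjusted p from 0.053 to 0.13). With siCyclin K#2 it was 0.37 (adjusted p = 0.10), and it passed without siCyclin K#1 replicate 3 (adjusted p = 0.030) or siCyclin K#2 replicate 1 (0.51, adjusted p = 0.033). TACC3, which steadies spindle fibres, rose with both (0.32 and 0.40, adjusted p = 0.0017 and 6.3e-04).

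KIF11, the motor that pushes spindle poles apart, had small differences, with 60.8, 59.4 and 58.7 FPKM with scrambled siRNA, 60.3, 62.2 and 62.2 under siCyclin K#1 and 64.9, 63.4 and 61.3 under siCyclin K#2 (log2 fold changes 0.05 and 0.08, adjusted p = 0.28 and 0.074, the latter 0.047 without siCyclin K#2 replicate 3). Its calls turned on the scaling: after quantile normalization it was higher with both siRNAs (0.16 and 0.12, adjusted p = 0.0037 and 0.022), and after median-ratio rescaling it was lower under siCyclin K#1 than under siCyclin K#2 (-0.11, adjusted p = 0.038). KIF2C, which depolymerises microtubules, DLGAP5, which stabilises them, and KIFC1, a minus-end motor, were higher with siCyclin K#2 (0.29, 0.37 and 0.40, adjusted p = 0.0017, 7.4e-04 and 0.023) and had -0.05, 0.09 and 0.03 with siCyclin K#1 (adjusted p = 0.46, 0.20 and 0.86). KIF2C was lower with siCyclin K#1 after median-ratio rescaling (-0.17, adjusted p = 0.014). The rise of KIFC1 did not pass without scrambled replicate 2 or 3 or siCyclin K#2 replicate 1 (adjusted p = 0.078, 0.061 and 0.054), and its difference between the siRNAs (-0.37, adjusted p = 0.037) was lost without scrambled replicate 3, any 1 siCyclin K#1 library, or siCyclin K#2 replicate 1 or 2 (adjusted p from 0.054 to 0.11). HMMR, a hyaluronan receptor that also binds spindle microtubules, passed with siCyclin K#1 (0.19, adjusted p = 0.040) although its libraries overlapped the scrambled ones, and was at 0.07 (adjusted p = 0.49) after median-ratio rescaling. That call was also lost without scrambled replicate 2 or 3, siCyclin K#1 replicate 1 or 3, or siCyclin K#2 replicate 2 (adjusted p from 0.057 to 0.13), while with siCyclin K#2 HMMR had 0.18 (adjusted p = 0.062) and passed without scrambled replicate 1 (0.23, adjusted p = 0.024).

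Cytokinesis genes fell with siCyclin K#1 in 4 of 6 members and rose in 1, with 0 lower and 2 higher with siCyclin K#2. KIF14, a motor of the midbody, had 16.1, 13.8 and 14.0 FPKM with scrambled siRNA, 9.93, 10.2 and 10.1 under siCyclin K#1 and 13.0, 14.0 and 12.9 under siCyclin K#2, with -0.53 for siCyclin K#1 (standard error 0.06, adjusted p = 1.5e-04) and -0.14 for siCyclin K#2 (adjusted p = 0.13, or -0.20 and 0.032 after quantile normalization). ECT2, the exchange factor that activates RhoA at the cleavage furrow, had 67.4, 67.3 and 69.3 FPKM with scrambled siRNA, 50.7, 48.6 and 51.3 under siCyclin K#1 and 72.0, 70.9 and 70.7 under siCyclin K#2, and fell with siCyclin K#1 (-0.44, adjusted p = 4.8e-06), with 0.07 for siCyclin K#2 (adjusted p = 0.12) and a difference of -0.50 (adjusted p = 6.6e-06). ANLN, the actin-binding protein anillin, and KIF23, a motor of the central spindle, had smaller falls with siCyclin K#1 (-0.22 and -0.20, adjusted p = 0.0033 and 9.7e-04). That of ANLN did not pass under quantile normalization (-0.08, adjusted p = 0.26). The related motors KIF20A and KIF20B were higher with siCyclin K#2 (0.30 and 0.27, adjusted p = 8.3e-04 and 6.5e-04). KIF20B had 20.5, 19.8 and 19.9 FPKM with scrambled siRNA, 23.5, 23.5 and 22.7 under siCyclin K#1 and 25.1, 24.3 and 23.3 under siCyclin K#2. KIF20A had 28.9, 30.5 and 29.7 FPKM with scrambled siRNA, 30.6, 34.1 and 31.1 under siCyclin K#1 and 37.0, 36.1 and 36.8 under siCyclin K#2, and in both genes the scrambled libraries were lower than the siCyclin K#2 libraries. The rise of KIF20B under siCyclin K#1 (0.21, adjusted p = 0.0019) did not pass after median-ratio rescaling (0.09, adjusted p = 0.098).

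Chromosome structure and surface genes fell in 4 of 7 members with siCyclin K#1 and rose in 5 of 7 with siCyclin K#2. MKI67 (ENSG00000148773, chromosome 10 from 128096659 to 128126385 of GRCh38), which encodes Ki-67, the protein that coats mitotic chromosomes and serves as a marker of proliferating cells, had 56.2, 57.1 and 56.6 FPKM with scrambled siRNA, 46.7, 47.7 and 49.0 under siCyclin K#1 and 74.1, 71.9 and 75.6 under siCyclin K#2. The 3 groups did not overlap: siCyclin K#1 was the lowest and siCyclin K#2 the highest. The log2 fold changes were -0.25 (standard error 0.03, adjusted p = 1.9e-04) and 0.38 (adjusted p = 2.2e-05), with a difference of -0.63 (adjusted p = 2.3e-06), and each of these calls held in all 20 alternatives.

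Condensin, the complex that folds mitotic chromosomes, was split as well. SMC4, a core subunit, had 46.0, 43.9 and 47.2 FPKM with scrambled siRNA, 35.4, 35.8 and 33.7 under siCyclin K#1 and 38.5, 38.2 and 35.7 under siCyclin K#2, and fell with both siRNAs (-0.39 and -0.29, adjusted p = 1.1e-04 and 1.0e-03). Its partner SMC2 passed with neither (0.03 and 0.15, adjusted p = 0.64 and 0.058), save with siCyclin K#2 when siCyclin K#2 replicate 3 was left out (0.19, adjusted p = 0.034) or testing was limited to genes that averaged an FPKM of 1 or more (adjusted p = 0.038). NCAPD2, a subunit of condensin I, had 35.1, 35.8 and 34.7 FPKM with scrambled siRNA, 40.6, 41.9 and 41.3 under siCyclin K#1 and 46.4, 43.9 and 48.0 under siCyclin K#2, and rose with both (0.23 and 0.39, adjusted p = 0.0010 and 6.4e-05), though with siCyclin K#1 not after median-ratio rescaling (0.11, adjusted p = 0.053). The other condensin I subunits, NCAPG and NCAPH, went opposite ways: -0.31 and -0.20 with siCyclin K#1 (adjusted p = 7.8e-05 and 0.0033) and 0.33 and 0.15 with siCyclin K#2 (adjusted p = 8.2e-05 and 0.018). The rise of NCAPH was lost after median-ratio rescaling (0.10, adjusted p = 0.11), and without scrambled replicate 2 or siCyclin K#2 replicate 3 (adjusted p = 0.062 and 0.063). TOP2A had 193, 199 and 189 FPKM with scrambled siRNA, 193, 198 and 190.0 under siCyclin K#1 and 231, 228 and 231 under siCyclin K#2. It was higher with siCyclin K#2 (0.25, adjusted p = 1.9e-04), while its direction with siCyclin K#1 turned on the scaling, from 0.00 (adjusted p = 0.99) as deposited to -0.12 (adjusted p = 0.0054) after median-ratio rescaling and 0.20 (adjusted p = 0.0025) after quantile normalization.

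Further genes of the pathway were counted by the same rule, to be read against the shares over all genes, which were 18.1% lower and 26.8% higher with siCyclin K#1, 15.2% and 19.8% with siCyclin K#2, and 12.3% and 17.1% between the siRNAs. Among genes that averaged an FPKM of 1 or more they were 27.8% and 36.5%, 22.4% and 31.1%, and 20.8% and 23.7%. Of 83 other mitosis genes tested from a list of 86, 44 were lower and 13 higher with siCyclin K#1 (median -0.34), 16 were lower and 20 higher with siCyclin K#2 (median 0.04), and 46 were lower and 2 higher under siCyclin K#1 than under siCyclin K#2 (median -0.30). ZW10, a kinetochore protein of the checkpoint, changed by 1.85 and 1.69 on the log2 scale and G2E3, a ubiquitin ligase of the late cell cycle, by -1.47 with siCyclin K#1 but little with siCyclin K#2, with means of 3.49 and 8.56 FPKM with scrambled siRNA, 12.8 and 3.02 under siCyclin K#1, and 11.5 and 8.37 under siCyclin K#2. MAD1L1, a checkpoint protein that binds MAD2, had means of 1.07, 3.12 and 2.94 FPKM (1.46 and 1.38 on the log2 scale). Of 46 tested S-phase genes from a list of 47, 25 were lower and 9 higher with siCyclin K#1 (median -0.23), 10 were lower and 20 higher with siCyclin K#2 (median 0.06), and 29 were lower and 1 higher under siCyclin K#1 than under siCyclin K#2 (median -0.30). CCNE2, cyclin E2, went from 4.65 to 1.08 and 3.48 FPKM and DBF4, the activator of the kinase CDC7, from 6.09 to 1.95 and 4.54.

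The list of 16 APC/C genes was evenly divided, with 5 lower and 3 higher with siCyclin K#1, 4 lower and 4 higher with siCyclin K#2, and 5 lower and 4 higher between the siRNAs. Of 12 tested cohesin genes from a list of 13, 3 were lower and 5 higher with siCyclin K#1 and 1 was lower and 6 higher with siCyclin K#2, led by SMC1A, a ring subunit (20.2, 40.4 and 42.7 FPKM). Between the siRNAs 3 were lower and 1 higher. Of 18 genes of the DREAM repressor complex and the E2F family, 4 were lower and 6 higher with siCyclin K#1, 5 were lower and 7 higher with siCyclin K#2, and 5 were lower and 5 higher between the siRNAs. RBL2, which encodes the DREAM subunit p130, had 6.46, 13.2 and 8.49 FPKM, E2F1 had 9.48, 11.3 and 19.1, and E2F5 had 3.83, 2.17 and 1.79. The counts of the DREAM and E2F list lay near the shares over all genes with siCyclin K#1. The APC/C, cohesin and DREAM and E2F lists are short, and their counts are not read as different from the shares given above.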

How the data were processed

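Total RNA of A549 cells was sequenced for the authors by a company, as paired reads on an Illumina instrument. The authors deposited FPKM values of 56252 features per library, made with StringTie 1.3.3b per the labels. The aligner, strand setting and annotation release are not given in the sources used here. FPKM already divides by gene length and library depth, so a shift in abundant RNAs moves every other value. Groups and replicate numbers come from the sample labels. The members of the set and all gene lists were chosen with earlier results of these data known.

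Rows of a reference gene were summed (47 entries had more than 1 row). WEE1 and BUB1B lie on rows that join other genes, and 9 members lie on rows under StringTie's own locus names. Genes that reached an FPKM of 0.1 in 3 or more libraries entered the test, and log2(FPKM + 0.1) was fitted with limma 3.58.1 in R 4.3.3 (lmFit, contrasts.fit, eBayes with trend) over all 9 libraries in 3 groups, with Benjamini-Hochberg adjustment over 21048 genes. On that scale the fold changes of weakly expressed genes come out too small. The scripts were tested on simulated data. An exact two-sided permutation test of 3 against 3 libraries cannot go below p = 0.1, so none is printed. The median standard error of the members' log2 fold changes was 0.05.

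Low FPKM values were whole multiples of the value of 1 read given the exon length in GENCODE's GRCh38 annotation (tolerance 0.01 reads), which gave the depth. By this rule 24382 of 27835 features were whole in every library, where a value of 0 counts as whole. Of the non-zero values of a library 83.3% to 84.1% were whole. Such a step may be 1 read or both reads of a pair. Replicates were not copies of each other (chi-square per degree of freedom of 13.6 to 18.2 in 9 pairs). Values in every library are given for MKI67, AURKB, FOXM1 and MYBL2, for the lowest and highest member of each role with each siRNA, and for the 5 members with the largest difference between the siRNAs. Library values of CDC25C, AURKA, CENPA, PTTG1, KIF11, ECT2 and TOP2A were added after theirs were seen. In the other lists at most 3 genes are named, in the order of their largest log2 change against scrambled siRNA. Matches to the siRNA seeds, planned at first, were not analysed here. Promoters and their starts are from RefSeq (GRCh38.p14), matched by symbol.

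Alternatives were other pseudocounts and filters, median-ratio and quantile scaling, eBayes without trend, fits of only the 2 groups compared, a replicate block, each library left out, the highest row of a gene, and other call rules. Added after the values were seen were limma-voom on recovered reads, members without exon overlap, and folds counted from the median of all genes.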

Additional observations from a re-analysis of the deposited data

Results flagged for a closer look

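A difference between the siRNAs that is larger than their spread, with the change against scrambled siRNA called in opposite directions, was found in 8 mitosis genes. The share of all tested genes that did so was not counted, so 8 of 57 is not read as particular to mitosis genes. All 8 fell with siCyclin K#1 and rose with siCyclin K#2 at an adjusted p under 0.05 from limma, and the difference was tested directly. For MKI67, the Ki-67 gene, it was -0.63 on the log2 scale, and for NCAPG, a condensin I subunit, -0.64. In these 2 genes no call in any of the 3 comparisons was lost under the alternatives. PLK1, the Polo-like kinase, had -0.71, and TPX2, the activator of Aurora A, -0.70. CDC25C, the phosphatase of CDK1, had -0.61, and the checkpoint kinases BUB1 and TTK had -0.59 and -0.54. NCAPH, another condensin I subunit, had -0.35. In these 6 genes the difference between the siRNAs kept its call throughout, while 1 of the changes against scrambled was lost under at least 1 alternative: 12 times for PLK1, 8 for CDC25C, 5 for NCAPH, 4 for BUB1, 2 for TPX2 and 1 for TTK.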

How the results depend on the processing

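The counts of called members, the medians and 171 single values (57 genes in 3 comparisons) were recomputed under each alternative. Of 3345 such single values 3206 kept their direction and their side of the threshold, 94 lost the call, 44 gained it and 1 reversed: TOP2A with siCyclin K#1, from 0.00 to -0.12 after median-ratio rescaling. The cause was not tested.

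For siCyclin K#1 against scrambled, the median of -0.20 was -0.19 with a pseudocount of 1 and -0.32 after median-ratio rescaling, which also left 7 members higher. For siCyclin K#2 the median of 0.17 was 0.12 after median-ratio rescaling and 0.13 after quantile normalization, and between the siRNAs the median of -0.35 was -0.42 and -0.31. Leaving out 1 library at a time gave medians of -0.21 to -0.16, 0.15 to 0.19 and -0.35 to -0.28, and counts of 9 to 12 higher and 28 to 29 lower, 24 to 28 higher and 8 to 10 lower, and 1 higher and 38 to 40 lower. Shares of all genes were not counted under the rescaling or with a library left out.

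Stricter call rules gave fewer calls by construction. With a fold over 1.5 they were 3 higher and 9 lower, 9 and 2, and 0 and 13. By the study's rule they were 0 higher and 1 lower, 0 and 0, and 0 and 0. Counting the fold from the median of all genes, with the adjusted p still from the test against no change, gave 2 and 14, 8 and 2, and 0 and 16. limma-voom on recovered reads, which has 32 members, called 7 higher and 18 lower, 16 and 5, and 26 lower between the siRNAs. Shares of all genes were not counted for the fold from the median or for limma-voom. The limma-voom count higher between the siRNAs is not given here. Among the 34 members without exon overlap 18 were lower with siCyclin K#1, 17 higher with siCyclin K#2 and 24 lower between the siRNAs. Of all genes 18.1%, 19.8% and 12.3% were called in these directions. Counts of the 34 members in the other direction are not given here.

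All groups number their replicates alike, but libraries of 1 number did not vary together (correlations of -0.071 to 0.038 in 9 pairs over 11243 genes), so they were not taken as pairs, and not every library correlated best with its own number. With the replicate block, 12 members were higher and 30 lower with siCyclin K#1, 27 and 8 with siCyclin K#2, and 1 and 41 between the siRNAs. The shares of all genes called with the block were not counted. With the block AURKA passed with siCyclin K#1 (-0.47, adjusted p = 0.016) and between the siRNAs (-0.64, adjusted p = 0.0079), CENPA passed with siCyclin K#1 (adjusted p = 0.032), and the calls of NUSAP1 with siCyclin K#1 (adjusted p = 0.063) and of PLK1 and CDCA3 with siCyclin K#2 (adjusted p = 0.080 and 0.097) were lost.

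With 3 libraries a group and a median standard error of 0.05, the smallest log2 change called among the members was 0.12 in size (PLK1 with siCyclin K#2). The values of genes on shared rows or with overlapping exons may hold reads of their partners, which was not measured.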
